A study of Arabidopsis thaliana with 2 samples.

Results

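The regions described here are the MNase hypersensitive sites (MHSs) of Arabidopsis thaliana whose midpoint lay in the 3' untranslated region (3' UTR) of a protein-coding gene. An MHS is a short stretch of chromatin where micrococcal nuclease, an enzyme that cuts exposed DNA, released many small fragments. A 3' UTR base was any exon base after the last coding base of any annotated TAIR10 transcript, and bases that were also coding sequence or 5' UTR in any transcript were left out. By this rule 7243 of the 70046 MHSs of replicate 1 were 3' UTR MHSs (10.3%, exact 95% interval 10.1 to 10.6). In replicate 2, 4241 of 49934 MHSs met the same rule (8.49%, 8.25 to 8.74). All intervals on shares are exact Clopper-Pearson intervals, cover counting error only and treat neighbouring MHSs as independent.

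Both libraries came from one group: untreated seedlings of the wild-type accession Columbia (Col-0) at 2 weeks of age, with chromatin fixed in 1% formaldehyde, digested lightly with the nuclease and sequenced from fragments of at most 100 bp. There was no treated or mutant group and no library of naked DNA among the files used, so the comparisons below set one class of MHS against another, or one replicate against the other. Whole seedlings hold many cell types, and an MHS list does not say which of them carried the site. The lists give only positions, so the height of an MHS is not known. By the study's description the libraries also differed in read number and in the share of reads that fell in MHSs, and the part of this in the overlap between them was not tested.

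The 3' UTR is the stretch of a messenger RNA between the stop codon and the poly(A) tail. Cleavage and poly(A) addition in plants are guided by loosely conserved A-rich and U-rich signals, of which the hexamer written AATAAA in DNA is the best known and TGTA is a frequent far-upstream element. At the DNA level a 3' UTR can also hold sites for transcription factors, starts of antisense transcripts, or the promoter of the next gene, because Arabidopsis genes lie close together. The hexamer TGGGCC is the core of the site II element, a promoter element recognised by TCP transcription factors, and CACGTG is the G-box, recognised by bHLH and bZIP factors.

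The stretches below are shown because, of the motifs searched, TGGGCC and CACGTG had the highest ratio between their share in 3' UTR MHSs found in both replicates and their share in MHS-free 3' UTR sequence. Each lies wholly in bases that are 3' UTR in some annotated transcript, and inside a replicate 1 MHS that overlapped one of replicate 2. They are read 5' to 3' on the strand of the gene from the RefSeq assembly TAIR10.1, with the motif in capitals. GGCCCA is TGGGCC read on the other strand.
AT1G28280 (chr1:9885433-9885462, minus strand): agagttgaagtgTGGGCCccatttccacta
SAG20 (chr3:3443497-3443526, plus strand): accataacgtatGGCCCAtatctttttgtg
TBL25 (chr1:156761-156790, minus strand): attcaggaaaaaTGGGCCacggaaccaaat
RR3, AT2G41310 (chr2:17224570-17224599, plus strand): ggtcgatctcatTGGGCCgggttcgggttg
WRKY45 (chr3:326180-326209, minus strand): ctttctttgttaGGCCCAttagcctgggct
RALF23 (chr3:5645691-5645720, plus strand): gcagagcaaccaCACGTGtagggataatct
HSFB2A (chr5:24917257-24917286, plus strand): agacaagcagagCACGTGtcccatctgttt
DWF4 (chr3:18814607-18814636, minus strand): tgattaatgaccCACGTGgtgtggtgccaa

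MHSs were denser in 3' UTRs than over the chromosomes as a whole. The eligible 3' UTR bases made up 6.84 Mb, 5.74% of chromosomes 1 to 5. Replicate 1 had 1059 MHS midpoints per Mb of 3' UTR, against 588 MHSs per Mb of all sequence, a ratio of 1.80. Replicate 2 had 620 against 419 per Mb, a ratio of 1.48. The density was alike on the 5 chromosomes, from 1011 per Mb on chromosome 3 to 1125 per Mb on chromosome 5 in replicate 1. Of the replicate 1 members, 4055 (56.0%) lay wholly in eligible 3' UTR bases, 2210 (30.5%) reached past the annotated 3' end of the gene and 1487 (20.5%) touched coding sequence. Only 161 members (2.22%) lay in the 3' UTR of more than 1 gene, and 159 of these had host genes on both strands.

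Between 1 in 4 and 1 in 6 genes carried such a site, depending on the replicate. A 3' UTR MHS was present in 6350 of the 23693 genes with an eligible 3' UTR in replicate 1 (26.8%) and in 3926 in replicate 2 (16.6%). The same gene carried one in both lists in 2913 cases, which is 45.9% of the replicate 1 genes and 74.2% of the replicate 2 genes. Most genes had a single site: 5467 had exactly 1, 751 had 2, 104 had 3 and 28 had 4 or more. Longer UTRs held one more often, from 5.78% of genes with a UTR of at most 100 bp to 40.9% of those above 600 bp. Genes with a 3' UTR MHS also had an MHS in the 1 kb upstream of their own transcription start site (TSS) more often than genes without, in 84.6% against 77.7% of cases in replicate 1 and 76.0% against 67.2% in replicate 2. This held in each class of UTR length in both replicates, and no test was run on it.

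Within the 3' UTR the sites lay towards the 3' end. In replicate 1, 2922 members (40.3%, 39.2 to 41.5) had their midpoint in the last 100 bases before the end of the gene, a stretch that holds 31.3% of the eligible bases. In replicate 2 the share was 39.2%. The density fell from 1415 per Mb in the last 50 bases to 618 per Mb at more than 500 bp from the end, and from 778 to 398 per Mb in replicate 2. The first 50 bases after the stop codon held 650 per Mb in replicate 1, while those 300 to 500 bp after it held 1360 per Mb. The median member lay 128 bp from the 3' end, against 165 bp for the median eligible base.

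The start of a neighbouring gene marked the densest 3' UTR sequence. In replicate 1, 812 members (11.2%, 10.5 to 12.0) lay within 200 bp of the TSS of another protein-coding gene, although 5.63% of the eligible bases do. In replicate 2 the share was 14.9%. Of the 812 members, 808 lay upstream of that TSS. The rule, which leaves out 5' UTR and coding bases, keeps most sequence downstream of a TSS out of the eligible bases. The density was 3423 per Mb within 100 bp of such a TSS, 1380 per Mb at 100 to 200 bp, and between 868 and 1258 per Mb in every class further away. Replicate 2 had 2703, then 1068, then between 483 and 656 per Mb. Most members were nevertheless more than 1 kb from the TSS of another protein-coding gene. Of all members, 2809 (38.8%) lay within 1 kb of one, against 32.4% of the eligible bases, and the other 4434 did not. With all annotated genes and pseudogenes as neighbours, 3400 members (46.9%) lay within 1 kb of a start. Starts of annotated non-coding RNA genes lay within 200 bp of 116 members (1.60%, 1.33 to 1.92), close to the 1.45% of bases that do.

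**Figure D1:**
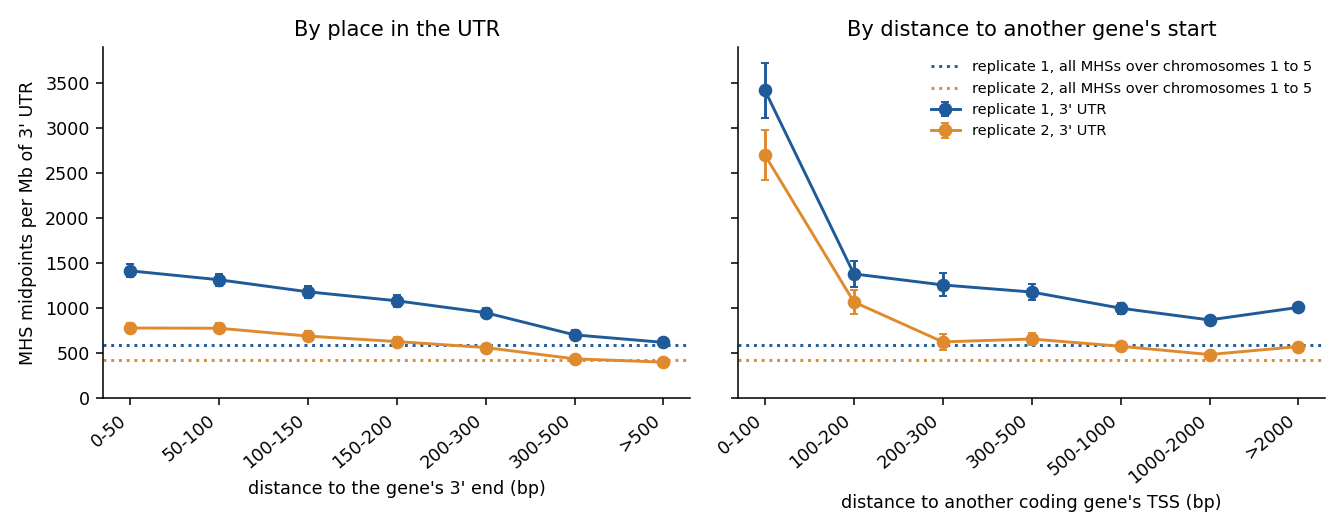
The plot of density by position gives MHS midpoints per Mb of 3' UTR (y axis) by distance in bp to the gene's own 3' end (left) and to the nearest TSS of another coding gene (right), with 95% Poisson error bars for counting error and dotted lines for all MHSs over chromosomes 1 to 5. Density fell away from the 3' end in both replicates, and was highest within 100 bp of another gene's TSS, at 3423 per Mb in replicate 1 and 2703 in replicate 2.

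How the next gene was oriented went with how many sites a 3' UTR held. Where the next coding gene downstream ran in the same direction (tandem) and began within 200 bp, the 3' UTRs held 1425 MHSs per Mb in replicate 1 and 990 in replicate 2. Where the next gene ran towards it (convergent) and ended within 200 bp, they held 758 and 419 per Mb. Where convergent genes overlapped, the density was 695 and 329 per Mb. At gaps of 200 to 500 bp the orientations still lay apart, at 1135 and 921 per Mb in replicate 1 and 650 and 488 in replicate 2. At 500 to 1000 bp they were close, at 1103 and 1081, and 635 and 627. Above 2 kb the values were 1148 per Mb for tandem and 1150 for convergent genes in replicate 1, and 671 per Mb for both in replicate 2. As a share of genes, 38.6% of those with a tandem neighbour within 200 bp had a 3' UTR MHS in replicate 1, against 18.9% with a convergent neighbour as close and 16.6% with an overlapping convergent one. Median UTR lengths of these 3 classes were 279, 256 and 251 bp.

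Part of this difference lay at the neighbour's TSS. In close tandem pairs the bases within 200 bp of another gene's TSS held 2232 MHSs per Mb in replicate 1, and the remaining bases held 1000 per Mb (527 members). The remaining bases of close convergent pairs held 752 per Mb (493 members). In replicate 2 the remaining bases held 573 per Mb in tandem and 412 per Mb in convergent pairs. So the density more than 200 bp from another gene's TSS was also lower in close convergent pairs, in both replicates. These bases were not matched by distance to a TSS beyond 200 bp, and the difference was not tested.

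**Figure D2:**
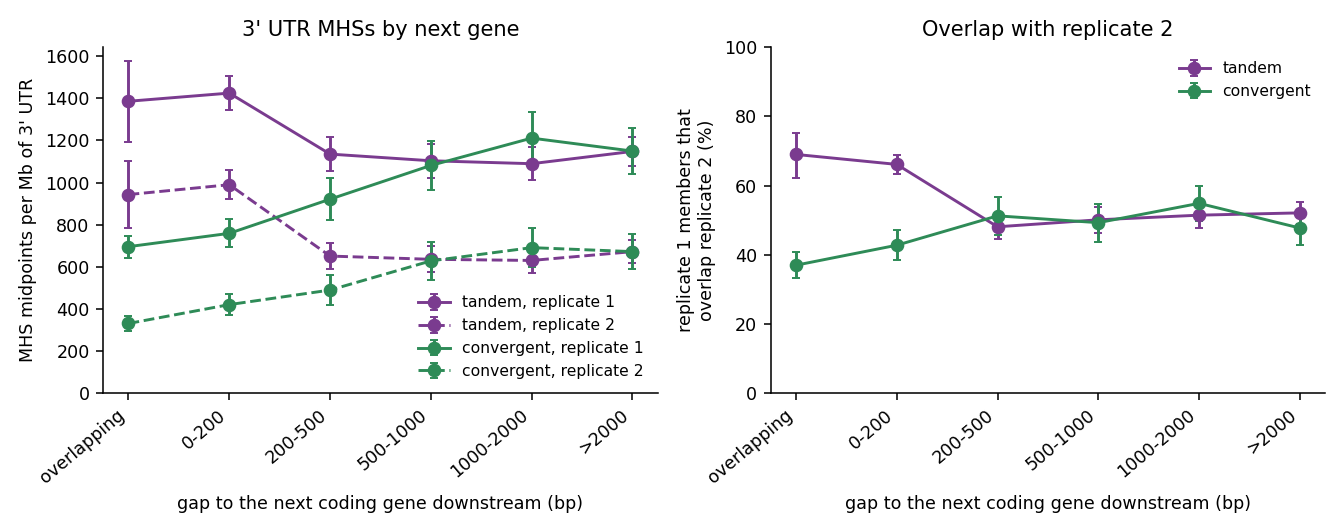
The plot by next gene gives MHS midpoints per Mb of 3' UTR (left, 95% Poisson error bars) and the percentage of replicate 1 members that overlap replicate 2 (right, exact 95% intervals) against the gap in bp to the next coding gene downstream. Tandem and convergent neighbours stood furthest apart at overlaps and gaps below 200 bp (1425 and 758 per Mb at 0 to 200 bp in replicate 1), and their error bars overlapped from 500 bp on.

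The 3' UTR sites were shorter than other MHSs and were found again in replicate 2 less often. The median length of the 7243 members was 109 bp (mean 160 ± 129 SD, range 38 to 1200), against 152 bp for the other 62803 MHSs of replicate 1. In replicate 2 the medians were closer, at 177 and 188 bp. Sites no longer than 100 bp formed 46.6% of the members and 35.2% of other MHSs, a difference of 11.4 percentage points (10.2 to 12.6, two-sided Fisher's exact test, adjusted p = 3.68e-78). A member counted as found again when it shared at least 1 bp with an MHS of replicate 2. Over all replicate 1 MHSs that share was 61.9%, and it was 26.2% for those of at most 100 bp and 82.4% for longer ones. Of the members, 3745 were found again (51.7%, 50.5 to 52.9), against 63.1% of other MHSs, a difference of -11.4 points (-12.6 to -10.2, Fisher's exact test, adjusted p = 4.38e-77). These p-values, adjusted over 15 tests by the method of Benjamini and Hochberg, treat MHSs as independent and compare these 2 libraries only.

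The gap was smaller among MHSs of like length. Among MHSs above 100 bp, 75.9% of members and 83.0% of others overlapped replicate 2, a difference of -7.10 points (-8.49 to -5.70, Fisher's exact test, adjusted p = 2.98e-26). Among those of at most 100 bp the shares were 24.0% and 26.5%, a difference of -2.48 points (-4.04 to -0.93, Fisher's exact test, adjusted p = 0.0023). In finer classes of length, which were not tested, the members' share was below that of other MHSs in each class. It was 34.6% against 39.5% above 75 and up to 100 bp, 49.1% against 53.2% above 100 and up to 150 bp, 72.8% against 75.6% above 150 and up to 200 bp, and 90.2% against 91.9% above 200 and up to 300 bp. Members that overlapped replicate 2 had a median length of 196 bp and those that did not one of 74 bp. In the other direction, 3463 of the 4241 members of replicate 2 overlapped replicate 1 (81.7%), against 86.9% of all replicate 2 MHSs.

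**Figure D3:**
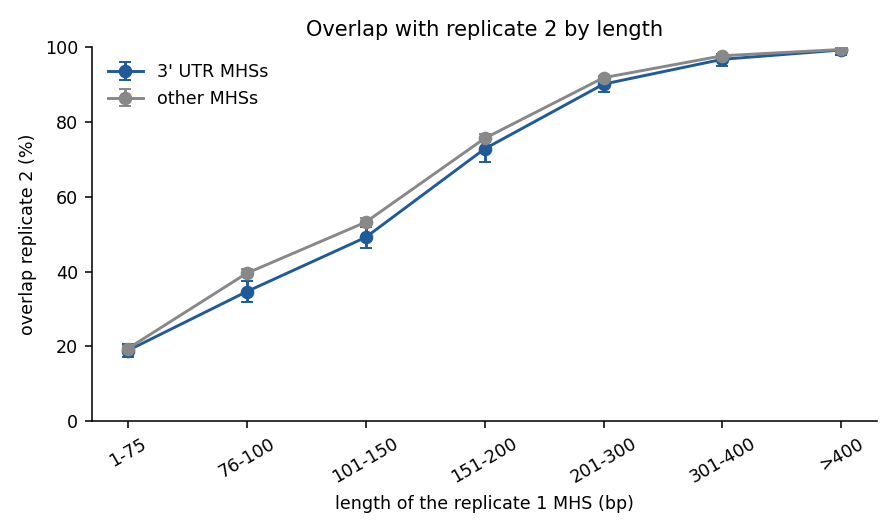
The plot of overlap by length gives the percentage of replicate 1 MHSs that share at least 1 bp with replicate 2 (y axis) in classes of MHS length in bp (x axis), with exact 95% intervals. Both 3' UTR MHSs and other MHSs rose with length, from 18.8% and 19.4% at up to 75 bp to 99.3% and 99.4% above 400 bp.

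MHSs at the other end of the gene differed more from the members than MHSs just past it. Of the 8094 MHSs in 5' UTRs, 79.1% overlapped replicate 2, and the members stood at -27.4 points to them (-28.8 to -25.9, Fisher's exact test, adjusted p = 2.35e-282), and 19.6% were of at most 100 bp. Of the 6657 MHSs that lay only in the 1 kb downstream of a gene's 3' end, 55.7% overlapped replicate 2, and the members stood at -3.98 points to them (-5.64 to -2.32, Fisher's exact test, adjusted p = 3.93e-06). Among short MHSs the members and the downstream sites differed by -0.15 points (-2.28 to 1.98, Fisher's exact test, adjusted p = 0.905), so a difference of up to about 2 points either way was not resolved.

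A member that was found again usually had its counterpart in the same kind of place. For 2994 of the 3745 (79.9%) the best partner in replicate 2 also had its midpoint in a 3' UTR. The midpoints lay a median of 40 bp apart, the pair shared a median of 140 bp, and the member was the longer of the pair in 40.5% of cases. Members near another gene's TSS were found again more often: 77.3% of those within 200 bp of one overlapped replicate 2, against 48.5% of those more than 1 kb away, a difference of 28.9 points (25.6 to 32.1, Fisher's exact test, adjusted p = 4.52e-54, a test chosen after results were seen). Their median lengths were 225 and 104 bp. Above 100 bp the shares were 89.6% and 73.6% (Fisher's exact test, adjusted p = 2.15e-19).

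By ratio, the sequence of the sites differed most from the rest of the 3' UTR in TGGGCC and CACGTG. Motifs were searched in the central 100 bp of each of the 7084 members whose hosts lay on 1 strand, and in 38419 windows of the same length in 3' UTR sequence free of replicate 1 and replicate 2 MHSs. TGGGCC, on either strand, was in 6.03% of members and 0.42% of MHS-free windows. In members that overlapped replicate 2 it was in 11.0%, in those that did not in 0.68%, and in members of replicate 2 in 10.2%. Other MHSs of replicate 1, whether or not they overlapped replicate 2, had it in 8.09% of their central windows. Among MHSs above 100 bp, it was in 10.5% of members and 11.8% of other MHSs. MHSs in 5' UTRs had it in 6.93% and those downstream of gene ends only in 7.75%. CACGTG, on either strand, followed at lower levels. It was in 2.12% of members, 3.48% of those that overlapped, 0.65% of those that did not and 0.40% of MHS-free windows. Other MHSs had it in 3.35%. Above 100 bp the shares were 3.21% of members and 4.48% of other MHSs.

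TGGGCC was not confined to members near the TSS of a neighbouring coding gene. Members within 200 bp of another coding gene's TSS had it in 14.5% of windows and members more than 1 kb from any such TSS in 5.18%. Among the latter, those that overlapped replicate 2 had it in 9.93%. Starts of non-coding genes and pseudogenes were not counted here, and some of these members lay within 1 kb of one. Around the midpoint of members the hexamer occurred 1.04 times per kb, whereas beyond 100 bp it stayed between 0.09 and 0.38 per kb, higher on the downstream side. CACGTG hardly stood out, at 0.28 per kb at the midpoint against 0.11 to 0.27 per kb beyond 100 bp. The full length of 651 members held TGGGCC, that of 288 held CACGTG, and 55 held both. The palindrome TGGGCCCA, which contains TGGGCC on both strands, was in 34 members.

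Sites above 100 bp that carried these motifs were found in both replicates more often than sites of like length without them. Of the 651 members with TGGGCC, 627 (96.3%, 94.6 to 97.6) overlapped replicate 2. They were long, with a median of 282 bp, so the comparison was made within length classes. Above 100 and up to 200 bp, 97 of 104 members with TGGGCC overlapped (93.3%, 86.6 to 97.3), against 1014 of 1823 without it (55.6%, 53.3 to 57.9). Above 200 and up to 300 bp the shares were 98.7% and 87.4%. Of the 288 members with CACGTG, 268 overlapped (93.1%), and above 100 and up to 200 bp the shares with and without it were 83.6% (71.9 to 91.8) and 56.8% (54.5 to 59.1). The intervals did not overlap in these length classes, and no further test was run. Above 300 bp nearly all members overlapped with or without a motif, at 100% and 97.1% for TGGGCC and 99.3% and 97.7% for CACGTG, and the CACGTG intervals overlapped. Short members with a motif were few: at up to 100 bp, 14 of 28 with TGGGCC overlapped (50.0%, 30.6 to 69.4) and 14 of 23 with CACGTG (60.9%, 38.5 to 80.3), against 23.8% without either motif taken in turn.

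**Figure D4:**
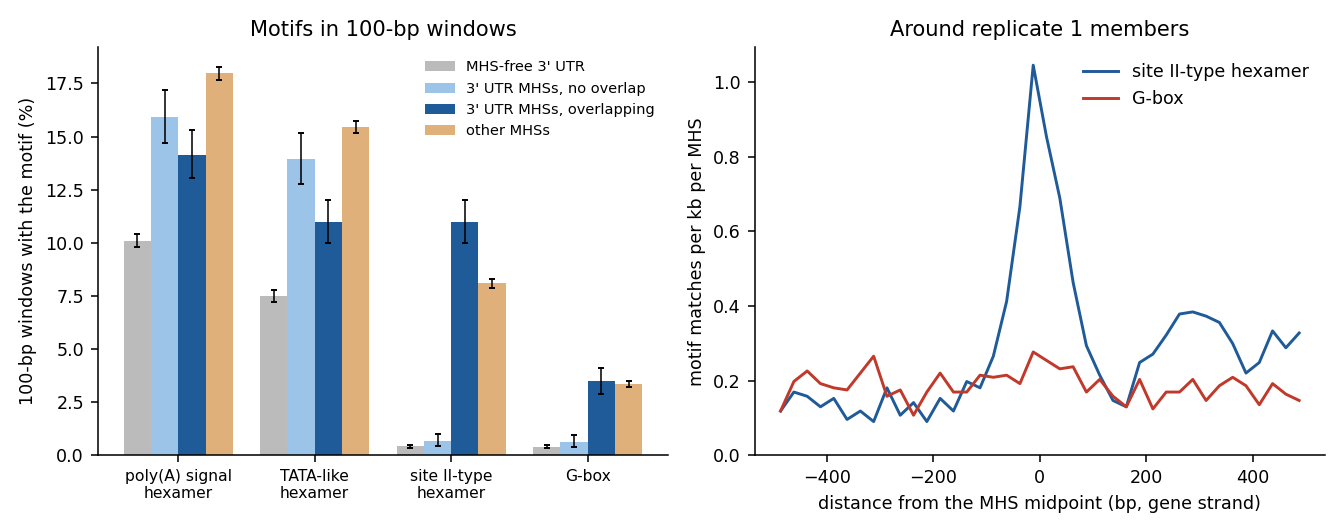
The plot of motifs gives the percentage of 100-bp windows that hold each motif (left, exact 95% intervals) in MHS-free 3' UTR, in 3' UTR MHSs without and with an overlap in replicate 2, and in other MHSs, and the matches per kb per MHS around the midpoint of replicate 1 members (right). The poly(A) signal hexamer is AATAAA, the TATA-like hexamer TATAAA, the site II-type hexamer TGGGCC and the G-box CACGTG. For AATAAA and TATAAA the 3' UTR sets were read on the gene's strand and other MHSs on the reference plus strand. Those bars are not like-for-like. The site II-type hexamer stood at 11.0% in overlapping members and 0.68% in the members without overlap, with its peak at the MHS midpoint. Other MHSs were not filtered by overlap or length.

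The RNA-processing hexamer showed a different pattern. AATAAA on the gene's strand was in 15.0% of members (14.2 to 15.9) and 10.1% of MHS-free windows (9.81 to 10.4), and in 14.1% of members that overlapped replicate 2. Members of replicate 2 had it in 11.6%. It was more frequent on the opposite strand, both in members (19.4%) and in MHS-free windows (13.8%). Members with their midpoint in the last 50 bases (21.3%) have windows that run past the gene's end, and the comparison by distance starts beyond them. At 50 to 100 bp from the 3' end the shares on the gene's strand were 17.9% and 15.1%, and beyond 300 bp they were 13.1% and 7.38%. TATAAA, which resembles the TATA box, was in 12.4% of members and 7.50% of MHS-free windows. TGTA on the gene's strand was in 54.5% of members and 54.1% of MHS-free windows. Other MHSs were read on the reference plus strand whatever the gene. They had TGTA in 39.2%, which is not a like-for-like value. Matches of AATAAA and TATAAA can share letters.

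The other motifs differed less by ratio. The W-box core, TTGACC or TTGACT on either strand, which WRKY factors recognise, was in 11.5% of members, 14.3% of those that overlapped replicate 2 and 8.59% of MHS-free windows. GCCGCC, the core of the element that ethylene response factors recognise, was in 0.48% and 0.31% of members and MHS-free windows, on either strand. The telobox AAACCCTA was in 0.80% and 0.87%, and the GAGA repeat GAGAGAGA in 2.17% and 1.41%.

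The members were A/T-rich. Whole members of replicate 1 held 69.1 ± 5.99% A/T (SD over 7243 members), those that overlapped replicate 2 held 66.9% and those that did not held 71.5%. Other MHSs of replicate 1 held 69.3%, and members of replicate 2 held 65.1%. In the 100-bp windows, A/T was 69.0% in members, 66.9% in those that overlapped replicate 2, 64.6% in members of replicate 2 and 67.1% in MHS-free 3' UTR. The overlapping members and those of replicate 2 held AATAAA in 14.1% and 11.6% of windows, and TATAAA in 11.0% and 9.52%. MHS-free windows held them in 10.1% and 7.50%. These sets were not matched by distance from the 3' end, and the part of A/T content in the motif shares was not tested. Micrococcal nuclease cuts A/T-rich DNA preferentially, and this preference cannot be told apart from open chromatin without naked DNA digested alike.

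The longest 3' UTR MHSs covered most of a UTR. The longest lay in RALF23 (AT3G16570, chr3:5644593-5646557, plus strand), which encodes a secreted signalling peptide of the rapid alkalinization factor family. It was 1200 bp long (chr3:5645497-5646696), lay mostly within the 1393 bp UTR and ran past the 3' end, and the nearest other coding TSS was 2649 bp away. Replicate 2 covered it with separate MHSs, of which the best partner was 458 bp long. The next were a 1118 bp site in AT1G28280, which encodes a VQ motif protein, and a 1116 bp site in SAG20 (AT3G10985), a senescence-associated gene. Both had convergent neighbours with no coding TSS within 1 kb, and replicate 2 held a 768 bp and an 833 bp partner inside them. A 1087 bp site in TBL25 (AT1G01430), of the trichome birefringence-like family, covered the TSS of the tandem neighbour UGT72B3 at 326 bp from its midpoint. Its partner of 874 bp stopped short of that TSS. IAA16 (AT3G04730), an Aux/IAA repressor of auxin response, held a 1053 bp site whose partner was 741 bp long.

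Some UTRs held many separate sites. CYCJ18 (AT2G01905, cyclin J18) had 7 members of 83 to 338 bp along a 2523 bp UTR, and 5 of them overlapped replicate 2. AT5G59050, which encodes a G patch domain protein, had 6 members in a UTR of 2425 bp, of which 4 overlapped. Its members of 418 and 83 bp overlapped the same 512 bp site of replicate 2. AT2G45300 had 5 members, of 65 to 496 bp, and all 5 overlapped, those of 96 and 73 bp with the same 199 bp site. Such UTRs are unions over transcripts, and for some transcripts their bases may be introns.

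**Figure D5:**
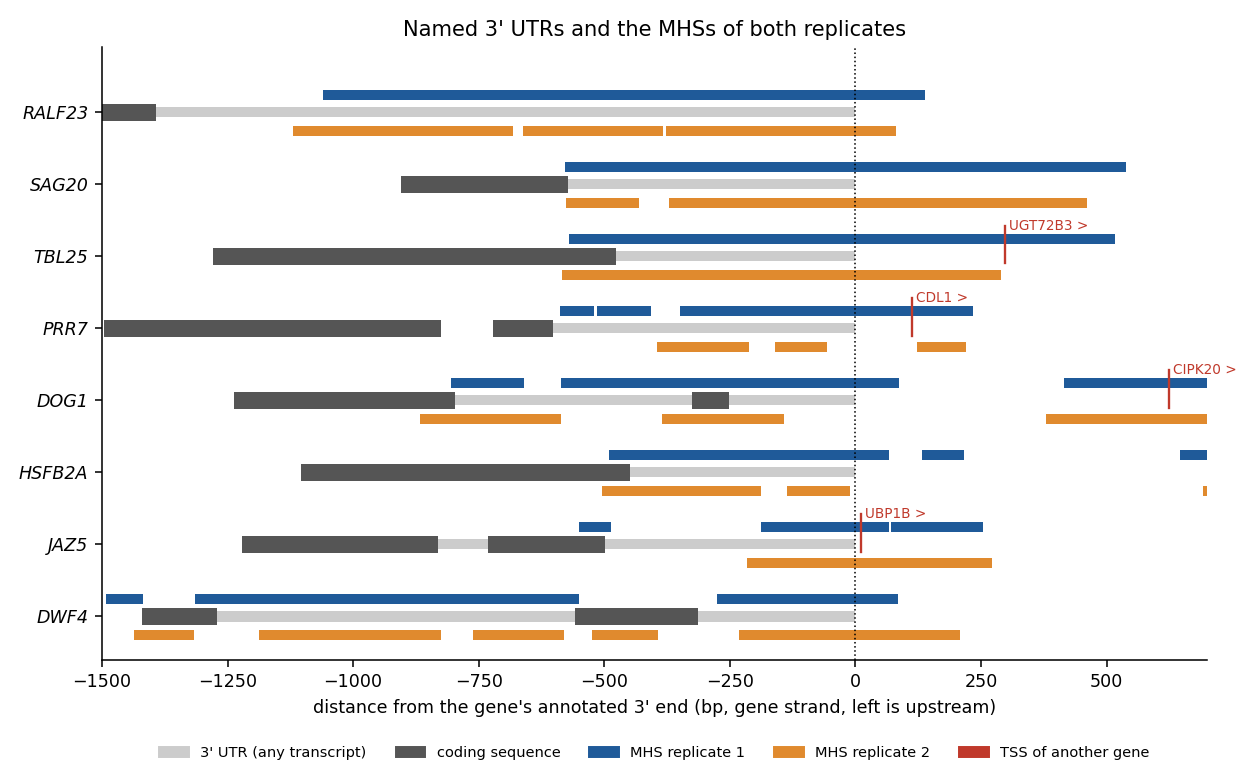
The map of named loci draws 8 genes with their MHSs by distance in bp from the annotated 3' end on the gene's strand (x axis), with replicate 1 above and replicate 2 below each gene, all MHSs shown whether or not they met the rule, and a red line at the TSS of another coding gene. The RALF23 and SAG20 sites reached past the 3' end with no other coding start nearby. The replicate 1 sites of TBL25, PRR7 and JAZ5 covered the TSS of a tandem neighbour. In replicate 2 this held for JAZ5 but not for TBL25 or PRR7.

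Genes of the circadian clock, the feedback loop that times daily gene expression, held 3' UTR MHSs in 5 of 16 genes with a UTR, 4 with a site found again. The background over all genes was 26.8%, or 14.4% for sites found again. PRR7, a pseudo-response regulator that represses morning genes, held 3 members. The longest was 583 bp, overlapped a 184 bp site of replicate 2 and had its midpoint 171 bp upstream of the TSS of CDL1, and the shorter ones of 106 and 69 bp had no overlap. LKP2 and ZTL encode related F-box photoreceptors. LKP2 held sites of 124 and 94 bp that both overlapped the same 181 bp site. ZTL held one of 144 bp, its midpoint 177 bp upstream of the TSS of AT5G57370. PCL1, also named LUX, a component of the evening complex, held a 67 bp site inside a 186 bp partner. ELF4, of the same complex, held a 68 bp site with no overlap.

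Among 6 genes known for antisense or non-coding transcripts at their 3' end, 3 held a member. Over all genes the share was 26.8%, or 14.4% for sites found again. FLC, the MADS-box repressor of flowering whose antisense transcripts start near its 3' end, held a 66 bp site (chr5:3173601-3173666), 252 bp from the 3' end, and replicate 2 had no overlapping site. DOG1, the seed dormancy gene, held sites of 674 and 146 bp, and both overlapped replicate 2. The 674 bp site also spanned a stretch that is coding sequence in some transcripts. HSFB2A, a heat shock factor, held a 557 bp site with a 316 bp partner, and the G-box stretch printed above lies in it. SPL3, SPL4 and SPL5, whose transcripts are targets of miR156 in the 3' UTR, held none in either replicate (0 of 3). Of 17 genes of the 3' end processing machinery, 5 held a member and 1 of these, CPSF30, had a site found again, 129 bp long inside a 161 bp partner. The sites in CPSF73-I, nPAP, FY and PAPS1 were 66 to 99 bp long without overlap, and that of PAPS1 was shared with the convergent gene AT1G17970.

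Counts in hormone response families are given beside 26.8% of all genes, or 14.4% for sites found again. Median UTR lengths were 382.5, 402, 276.5 and 259.5 bp in the IAA, JAZ, response regulator and SAUR lists, against 271 bp over all genes. Of the genes with an IAA name 13 of 32 held a member and 4 had one found again. Without the auxin response factors ARF19, MP and NPH4, which share such names, the Aux/IAA repressors gave 12 of 29 and 3, among them IAA16 and IAA7 (385 bp, partner 295 bp). Of the JAZ repressors of jasmonate response 6 of 12 held one and 3 had one found again. The JAZ5 site, 255 bp long, covered the TSS of UBP1B, with its midpoint 73 bp upstream, and lay within a 486 bp partner. JAZ10 held 5 members, of which 1 was found again, 87 bp long within a 124 bp partner. Of the response regulators of cytokinin signalling, type-A and type-B with the type-C gene RR22, 6 of 20 held one and 5 had one found again. RR3 (AT2G41310, also listed as ARR8) held a 544 bp site with 54.8% A/T, the start of a non-coding RNA gene 114 bp from its midpoint and a 451 bp partner, and RR1 (ARR1) a 442 bp site with a 423 bp partner. Genes matched by the SAUR name held one in 20 of 78 cases, 9 found again, with SAUR36 at 286 bp.

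The shares in transcription factor families can be read against 26.8% of all genes, or 14.4% for sites found again, and none was tested. A member was present in 16 of 70 WRKY genes, of which 8 had one found again. A WRKY45 site was 364 bp long within a 584 bp partner. A 243 bp WRKY26 site covered the TSS of PRA1.B6, with its midpoint 44 bp upstream. Heat shock factors held one in 7 of 19 cases, 5 found again. A 284 bp HSFA8 site covered the TSS of POD1, with its midpoint 68 bp upstream. Of the MYB genes 32 of 116 held one, 14 found again, with 413 bp in MYB47 and 378 bp in MYB2. Of the NAC genes 20 of 70 held one, 11 found again, with 354 bp in NAC032 and 325 bp in NAC050.

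Among enzymes and structural genes, cytochrome P450 genes held a member in 68 of 210 cases, 40 of them found again. Over all genes the shares were 26.8% and 14.4%. DWF4, a P450 of brassinosteroid synthesis, held a 764 bp site with its G-boxes and no other coding TSS within 1 kb. Coding sequence of another DWF4 transcript lay 3' of these G-boxes, so they are in 3' UTR for some transcripts only. CYP77A6 held a 654 bp site that covered the TSS of APEM9, with its midpoint 251 bp upstream. The light-harvesting genes held one in 4 of 20 cases, 1 found again, an 86 bp site in Lhca6. Genes whose product name matched ribosomal protein, organelle forms included, held one in 41 of 219 cases, 19 found again. Disease resistance genes of the NBS-LRR class held one in 19 of 104 cases, 10 found again. The 255 bp site of AT4G19530 covered the TSS of INDH, with its midpoint 11 bp upstream. These lists differ in UTR length, from a median of 231 bp in the P450 genes to 506 bp in the 3' end processing genes, and no list was tested against the background.

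Short sites could also match closely between the replicates. A 65 bp site in DEG14 lay inside a 69 bp site of replicate 2, an 89 bp site in DJ1F inside one of 96 bp, and a 96 bp site in GlcNAc1pUT1 inside one of 104 bp. These were picked as the most alike pairs of short members, whereas 24.0% of the 3377 short members overlapped replicate 2 at all.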

How the data were processed

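MH-seq was performed by the authors on 2 libraries of Col-0 seedlings. Per the labels, reads were processed with cutadapt, Bowtie2 and deepTools on TAIR10, with versions not given in the sources used here. By the study's methods, full-length alignments of good mapping quality were kept and MHSs were called with the authors' own software, Jazz, as regions enriched in reads, with a threshold set by a Bayes factor. A zero-inflated Poisson model set the local threshold for peaks. The deposited files are lists of MHS positions without counts, scores or pooled columns. How peak calling was tuned in each library can change the number and length of MHSs.

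Each MHS was placed by its midpoint on the RefSeq annotation of TAIR10.1 with Python 3 scripts (SciPy 1.17.1, NumPy 2.4.6), and the count of members was checked with bedtools 2.31.1. The replicate 1 list is the main list. Overlap needed 1 bp. Shares were compared with two-sided Fisher's exact tests, adjusted over 15 tests, 3 of them chosen after results were seen. The functions were tested on simulated data, and all 24 checks gave the known answers.

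Members and gene lists were chosen with earlier results of these data known. Named genes were those of the 5 longest members that overlap replicate 2. Also named were the 3 longest such members with no other coding TSS within 1 kb and the 3 longest at a convergent neighbour. The 3 genes with the most members were added, as was every member in the clock, antisense, miR156 and 3' end processing lists. The last were the 2 longest overlapping members of each family and the 3 short members most alike in both replicates. The SAUR list matches by name and includes AT5G01830, an ARM repeat protein, which is not described. Alternatives were merged lists, 1 transcript a gene, other overlap rules, length limits and the replicate 2 list.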

Additional observations from a re-analysis of the deposited data

How the results depend on the processing

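No paired analysis was possible because both libraries belong to 1 group and no comparison between groups was made. The lower overlap with replicate 2 and the higher share of short MHSs kept their direction and stayed past the threshold under every alternative run. With the replicate 2 list in place of replicate 1, the difference in overlap was -5.75 points and that in short MHSs 2.93 points. The share of MHSs in 3' UTRs was 15.6% with any overlap of 1 bp, 9.40% with 1 transcript a gene and 8.49% without replicate 1. The share within 1 kb of another gene's TSS was 42.6% for members that overlap replicate 2, 41.1% without replicate 1, 41.1% above 100 bp, 46.9% with all annotated genes and pseudogenes as neighbours, and 11.2% at 200 bp. The share in the last 100 bases was 41.8% for members that overlap replicate 2, 39.2% without replicate 1, 42.8% above 100 bp, and 21.3% in the last 50 bases. The share with AATAAA was 14.1% for members that overlap replicate 2, 11.6% without replicate 1, 21.5% over the whole MHS and 19.4% on the opposite strand. The genes with a 3' UTR MHS were 39.1% with any overlap of 1 bp, 16.6% without replicate 1 and 14.4% for members that overlap replicate 2. Mean A/T content was 66.9% for members that overlap replicate 2, 65.1% without replicate 1 and 68.0% above 100 bp, against 69.1% as reported. Each shift was below 1 SD over single members, which is a wide limit for a mean. Settings added after seeing the data gave TGGGCC in 10.2% of members of replicate 2 and 10.5% above 100 bp. They gave 5.18% more than 1 kb from another coding TSS and 9.06% over the whole MHS. Position lists carry no depth, so an MHS missing from a list was not detected there, which does not show closed chromatin.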
